A study of Rattus norvegicus with 6 samples.

Results

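The genes described here are those of antigen presentation by the major histocompatibility complex (MHC), called RT1 in the rat, as measured by RNA-Seq in 2 kinds of mural cells of the rat brain. Members were chosen by gene symbol alone. They are the RT1 genes, B2m, Tap1, Tap2, Tapbp and Tapbpl, Psmb8 to Psmb10, Psme1 to Psme4, Nlrc5, Erap1, Calr, Canx and Pdia3. The rule found 43 member genes among the 14607 genes listed, with 42 symbols, since RT1-CE16 stands for 2 Ensembl genes. By role they comprised 22 class I heavy chain genes, B2m, 8 transport and loading genes, 3 catalytic subunits of the immunoproteasome, 4 proteasome activator genes, 4 class II genes and the transactivator Nlrc5. According to the paper, the listed genes are only those with reads in every sample. Other MHC genes, and other genes of the cell type lists used below, can therefore be absent. The invariant chain gene Cd74 and the class II transactivator gene Ciita were also named by the rule, and were not analysed here.

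Nearly every cell with a nucleus can display peptides of its own proteins on MHC class I molecules, which consist of a heavy chain bound to beta-2 microglobulin. The peptides are cut by the proteasome, carried into the endoplasmic reticulum by the TAP transporter, trimmed there and loaded onto the heavy chain with the help of chaperones. MHC class II molecules present peptides taken up from outside the cell and are known mainly from dendritic cells, B cells and macrophages. Interferon gamma is known to induce the genes of both pathways.

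Vascular smooth muscle cells (VSMCs) of parenchymal arterioles and mid-capillary pericytes (mcPCs) were isolated from the cerebral cortex of male Sprague-Dawley rats aged 4 to 5 weeks, in 3 samples each. All cortex tissue was digested with Liberase DL and filtered. Only the arterioles kept by the filter were digested again, with Liberase TM and trypsin. From them VSMCs were freed of CD31+ and CD11b+ cells and then sorted positively with the lectin GSA-FITC. The mcPCs were the cells of the filtrate left after removal of CD31+, CD11b+, GLAST+ and O4+ cells. Neither the added digestion nor the way of sorting can be told apart from cell type in these values. Each isolation pooled several rats, and the RNA integrity numbers of the samples lay between 6.40 and 8.50. The data give the authors' mean of each cell type for every gene, so no SD between samples can be given, no difference was tested, and each value below stands for 1 mean over 3 samples.

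Reads assigned to the listed genes came to 62.0 M in a VSMC sample and 48.0 M in a mcPC sample, as means of the 3 samples. Transcripts of an erythrocyte list made up 0.735% of the TPM (transcripts per M, an abundance per transcript length) of VSMCs and 55.0% of that of mcPCs, and the median gene stood at 12.7 TPM in VSMCs against 3.59 TPM in mcPCs. A log2 ratio of mean TPM of mcPCs over VSMCs was -1.72 for the median gene, whereas a log2 ratio of the authors' mean normalized counts, computed with a pseudocount of 1, was 0.01. The latter is the log2 ratio used throughout, with 2-fold as the limit. TPM is used for levels within a cell type, where genes can be compared per length, and the rank of a gene is given as the percentage of listed genes with a lower TPM. The smooth muscle list checked the labels. All 6 of its genes, with a median log2 ratio of -8.01, were at least 2-fold higher in VSMCs, against 13.8% of all listed genes. Of the 8 genes of a mural cell list, 5 passed the limit in mcPCs, against 21.6% of all listed genes. Mcam passed it in VSMCs (log2 ratio -1.11), while Cspg4 and Rgs5 stayed within it (-0.19 and -0.06). The median of the mural cell list was 1.95, beside 2.02 for the MHC genes.

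As a whole, the MHC genes stood higher in mcPCs. At least 2-fold higher levels in mcPCs were found for 33 of the 43 members, against 21.6% of all listed genes. In the opposite direction the limit was passed by 1 member, RT1-T24-3, against 13.8% of all listed genes. The median log2 ratio of the members was 2.02, beside 0.01 over all listed genes. Leaving aside the class I heavy chains, all of which share reads, 13 of 21 members were higher in mcPCs by at least 2-fold, with a median of 1.57. Judged by reads that were not whole numbers, 9 of these 21 (42.9%) shared reads too, against 30.1% of all listed genes. The rank of mean TPM was higher in mcPCs for 39 of the 43 members, compared with 46.5% of all listed genes. At least 16-fold higher levels in mcPCs were found for 6 members, as for 4.07% of all listed genes. These were RT1-Da, RT1-DMa, RT1-S3, RT1-N2, RT1-S2 and Nlrc5, and all of them except RT1-S3 were under 0.8 TPM in VSMCs. On TPM as it stands, 13 members were at least 2-fold higher in mcPCs, against 7.00% of all listed genes, and 10 in VSMCs, against 72.3%. On TPM rescaled without the erythrocyte list these counts were 27, against 13.4%, and 2, against 32.2%. No member was 4-fold higher in VSMCs on normalized counts, as were 5.64% of all listed genes. The direction depended on the scale for 12 members, while 27 were higher and 4 lower in mcPCs on all 6 scales that were computed. Of the members 37 had at least 0.8 TPM in either cell type, and 39 had at least 10 reads per sample in both. In VSMCs 12 members were under 0.8 TPM. The paper removed genes under this limit from its final gene set, because endothelial transcripts were more abundant in mcPCs. Such genes were kept here.

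**Figure D1:**
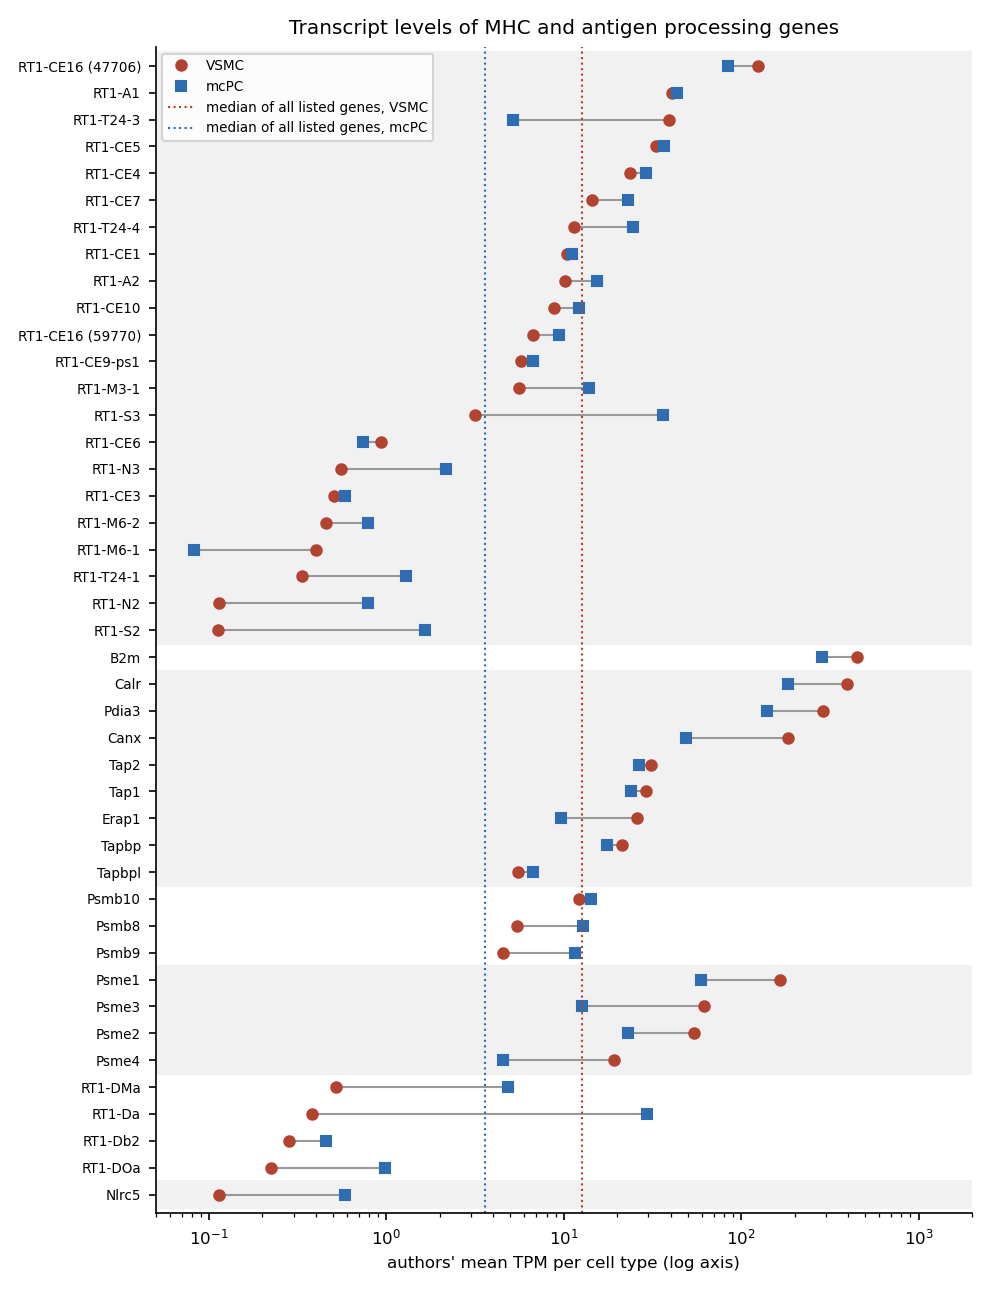
The mean TPM of each member is plotted on a log axis, with circles for VSMCs and squares for mcPCs, and dotted lines mark the median of all listed genes in each cell type (12.7 and 3.59 TPM). Most squares lie to the right of the blue line, B2m is the most abundant member in both cell types (452 and 287 TPM), and the class II genes are under 0.8 TPM in VSMCs.

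Class I heavy chain transcripts were found in the samples of both cell types and ranked higher in mcPCs. Summed over the 22 genes, the level was 340 TPM in VSMCs against 360 TPM in mcPCs. Their normalized counts summed to 9997 and 40832, a log2 ratio of 2.03 that came to 0.08 on the TPM scale as it stands. Of the 22 genes, 20 were higher in mcPCs by at least 2-fold, against 21.6% of all listed genes. The 22 had a median log2 ratio of 2.27. Their median rank was 37.2% in VSMCs and 76.2% in mcPCs. None of the 22 genes had whole numbers of reads (within 0.05 of a read) in both cell types, compared with 30.1% of all listed genes lacking them. Reads had thus been divided among similar transcripts, so values of individual RT1 genes are uncertain. Sprague-Dawley rats can also carry other RT1 alleles than the reference genome.

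The largest class I signal in both cell types came from RT1-CE16 (ENSRNOG00000047706), at 124 TPM in VSMCs against 84.7 TPM in mcPCs. Its log2 ratio was 1.25, although its TPM was lower in mcPCs. RT1-A1, a classical class I gene of the A series, stood at 40.7 and 43.4 TPM, with a log2 ratio of 1.88. By mean TPM over both cell types, 2 genes of the CE series came next. RT1-CE5 was measured at 32.9 TPM in VSMCs against 36.9 TPM in mcPCs (log2 ratio 1.98), and RT1-CE4 at 23.5 and 28.9 TPM (log2 ratio 2.10). All 10 genes of the CE series were higher in mcPCs by at least 2-fold, within a narrow range of 1.25 to 2.40.

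Genes of the N, S and T24 series diverged most. RT1-S3 was at 3.18 TPM in VSMCs against 36.3 TPM in mcPCs, a log2 ratio of 5.38, and its rank was 28.5% and 93.2%. RT1-T24-3 showed the opposite, with 39.2 TPM in VSMCs against 5.18 TPM in mcPCs and a log2 ratio of -1.10. It was at least 2-fold higher in VSMCs on all 6 scales. The other 5 genes of these series had log2 ratios from 2.96 (RT1-T24-4) to 4.55 (RT1-N2). RT1-S2 rested on 3.96 reads over the 3 VSMC samples and 98.1 reads over the 3 mcPC samples. Among the 3 genes of the M series, RT1-M3-1 and RT1-M6-2 had log2 ratios of 3.11 and 2.48. RT1-M6-1 had a log2 ratio of -0.41 that turned to 0.25 when TPM was centred on the median gene.

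Shares within the class I total do not depend on how the cell types are scaled. RT1-CE16 (ENSRNOG00000047706) made up 36.4% of class I TPM in VSMCs and 23.6% in mcPCs. RT1-T24-3 held 11.5% of the total in VSMCs and 1.44% in mcPCs, whereas RT1-S3 held 0.935% and 10.1%. The share of RT1-A1 hardly differed, at 11.98% and 12.06%. By series, the CE genes held 67.0% in VSMCs and 59.6% in mcPCs, and the N, S and T24 genes 16.14% and 19.97%.

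**Figure D2:**
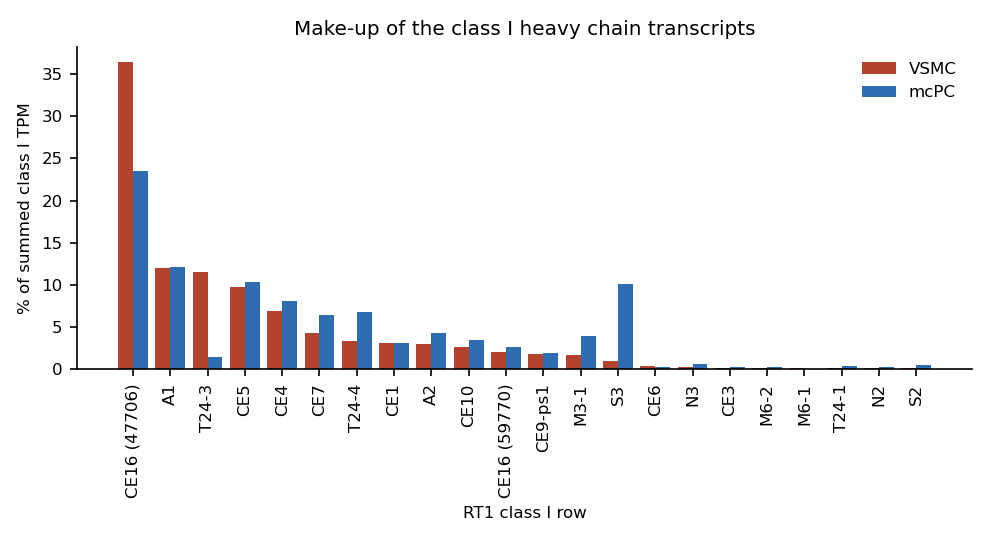
Bars give the share of each RT1 class I gene in the summed class I TPM of VSMCs and of mcPCs, ordered by the share in VSMCs. RT1-T24-3 has the larger share in VSMCs (11.5% against 1.44%) and RT1-S3 in mcPCs (0.935% against 10.1%), while RT1-A1 is nearly level (11.98% and 12.06%).

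B2m, the light chain that class I heavy chains need to reach the cell surface, was the most abundant member. Its level was 452 TPM in VSMCs against 287 TPM in mcPCs, above 97.6% and 99.2% of listed genes. The log2 ratio was 1.17, with a 95% counting interval of 1.15 to 1.18. Intervals given here for single genes are exact binomial intervals on the reads and cover counting error only. On TPM as it stands the log2 ratio of B2m was -0.66, and it was 1.06 after centring on the median gene. Per B2m transcript, class I heavy chain transcripts numbered 0.752 in VSMCs and 1.25 in mcPCs, a difference of 0.74 on the log2 scale.

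The promoters of B2m and class I genes are known for the SXY module, a set of boxes (S, X and Y) through which the transactivators NLRC5 and CIITA act, and for interferon response elements. RefSeq promoters of rat assembly GRCr8, from 250 bases before to 50 bases after the start, were at hand for 37 of the 42 member symbols. The letters TGACG or CGTCA (core of the X2 box) followed within 30 bases by ATTGG (core of the Y box) on the strand of the gene were found in 4 of the 37, or 10.8%, and in 0.765% of 33469 promoters in all. These matches are shown because 3 of the 4 lie in class I heavy chain genes and the other in the light chain gene, with the letters of both cores in capitals.
B2m, chr3:129549221-129549290, plus strand: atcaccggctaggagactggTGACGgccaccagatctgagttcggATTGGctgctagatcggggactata
RT1-A1, chr20:4907131-4907200, plus strand: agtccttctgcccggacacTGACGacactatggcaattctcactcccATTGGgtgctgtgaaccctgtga
RT1-A2, chr20:4872744-4872813, plus strand: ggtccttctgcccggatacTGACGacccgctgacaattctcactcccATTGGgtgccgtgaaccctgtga
RT1-M3-1, chr20:1333367-1333436, minus strand: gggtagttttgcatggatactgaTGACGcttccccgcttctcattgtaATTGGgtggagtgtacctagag
Of these 4 genes, RT1-A2 was at 10.2 TPM in VSMCs against 15.5 TPM in mcPCs, and RT1-M3-1 at 5.59 and 13.8 TPM. A match says only that the letters are there, and the sequences are those of the reference rat.

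Among the transport and loading genes, the TAP, tapasin and tapasin-like genes passed the 2-fold limit in mcPCs, whereas Erap1 and the general chaperones did not. Tap1 and Tap2, the subunits of the peptide transporter, were at 29.2 and 31.1 TPM in VSMCs and at 23.9 and 26.5 TPM in mcPCs. Their log2 ratios were 1.64 and 1.57. The number of Tap1 transcripts per Tap2 transcript was 0.939 in VSMCs and 0.899 in mcPCs. Tapbp encodes tapasin, which bridges TAP and the class I heavy chain. Its TPM was 21.3 in VSMCs and 17.5 in mcPCs, with a log2 ratio of 1.51. For the related peptide editor gene Tapbpl, TPM was 5.49 and 6.73 and the log2 ratio 2.10 (1.996 to 2.200).

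Erap1, a peptidase that trims peptides in the endoplasmic reticulum, was at 25.9 TPM in VSMCs against 9.71 TPM in mcPCs, with a log2 ratio of 0.39. The chaperones that also fold many other glycoproteins were the most abundant of this group. Calr (calreticulin) was at 394 TPM in VSMCs against 184 TPM in mcPCs, with a log2 ratio of 0.73. Pdia3, the disulfide isomerase ERp57 of the loading complex, was at 289 and 140 TPM, with a log2 ratio of 0.79. Canx (calnexin) was at 184 TPM in VSMCs against 48.6 TPM in mcPCs, with a log2 ratio of -0.10. In all, 4 of the 8 transport and loading genes were higher in mcPCs by at least 2-fold, against 21.6% of all listed genes. All 8 had a higher rank in mcPCs, against 46.5% of all listed genes. On TPM rescaled without the erythrocyte list 1 of the 8, Tapbpl, passed the limit in mcPCs, against 13.4% of all listed genes. On TPM as it stands 0 of the 8 did so in mcPCs and 4 in VSMCs, against 7.00% and 72.3% of all listed genes. The log2 ratios of Tap1, Tap2 and Tapbp on that scale were -0.29, -0.23 and -0.28, and that of the median gene was -1.72. Within a cell type, Tap1 and Tap2 transcripts together numbered 0.0696 per transcript of Calr, Canx and Pdia3 in VSMCs and 0.135 in mcPCs, a log2 difference of 0.96.

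**Figure D3:**
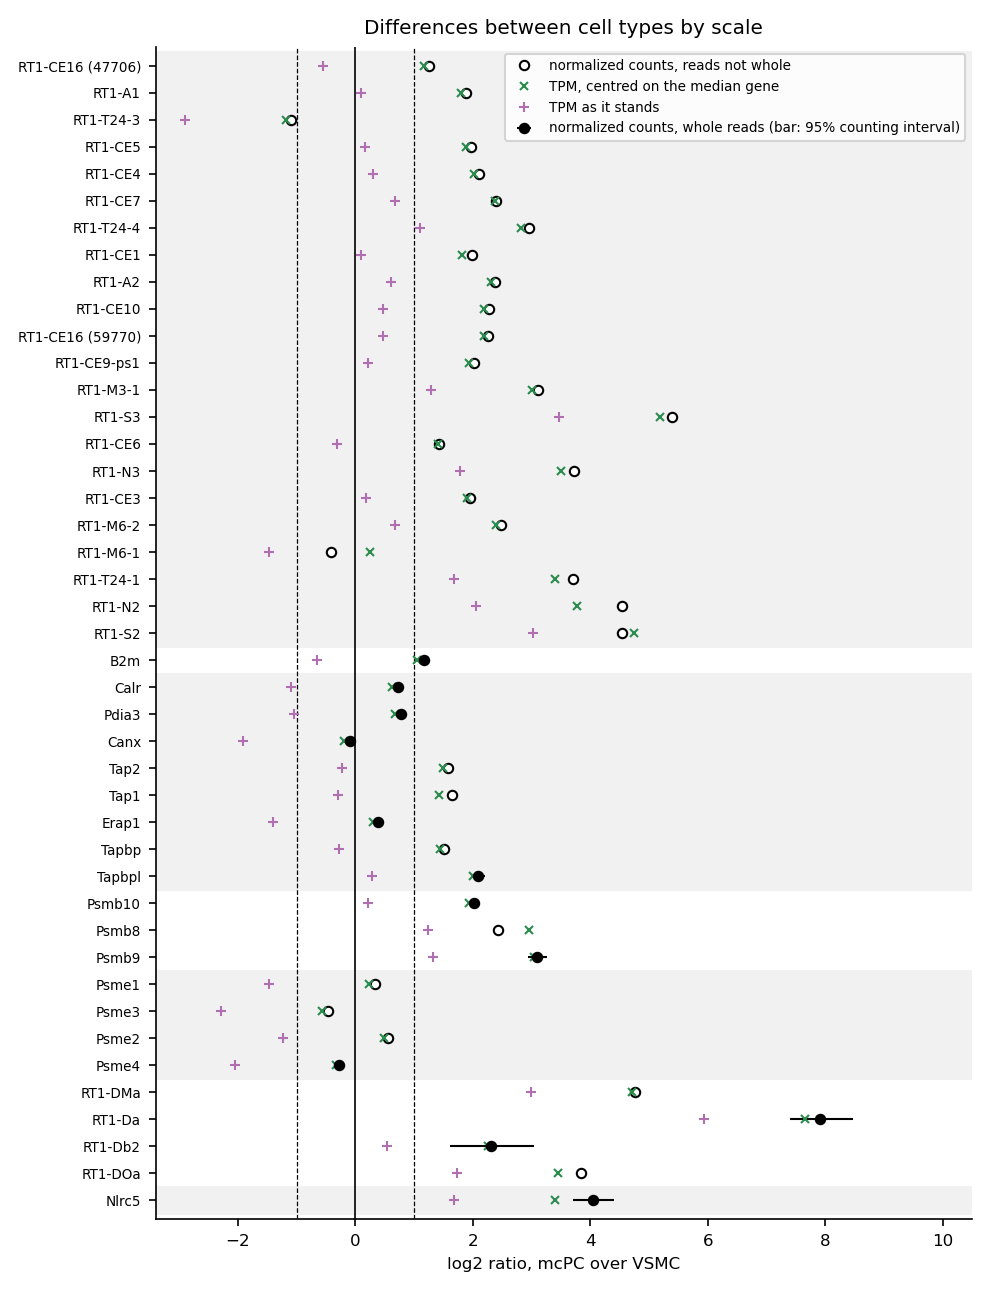
The log2 ratio of mcPCs over VSMCs is plotted for each member on normalized counts (circles, filled with 95% counting intervals where reads were whole), on TPM centred on the median gene (crosses) and on TPM as it stands (plus signs), with dashed lines at the 2-fold limit. Circles and crosses lie close together for most members, the plus signs lie to their left, and RT1-Da has the highest ratio (7.91) and RT1-T24-3 the lowest (-1.10).

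The catalytic subunits Psmb8, Psmb9 and Psmb10 take the places of Psmb5, Psmb6 and Psmb7 in the immunoproteasome, which favours peptides that class I molecules bind. All 3 were higher in mcPCs by at least 2-fold. Psmb8 was at 5.42 TPM in VSMCs against 12.9 TPM in mcPCs. Psmb9 was at 4.55 and 11.6 TPM, and its log2 ratio was 3.10 (2.93 to 3.26). Psmb10 was at 12.2 and 14.2 TPM, with a log2 ratio of 2.01 (1.91 to 2.11). The log2 ratio of Psmb8 was 2.43 on normalized counts but 4.64 on reads scaled without the erythrocyte list. Its mean effective length, which the normalized counts take into account, was 524 bases in VSMCs and 802 bases in mcPCs. This 1.53-fold difference in length is smaller than the gap between the 2 log2 ratios, and what else lay behind the gap was not tested. Reads of Psmb8 were not whole numbers, so they had been divided among similar transcripts and its values are uncertain.

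The constitutive subunits did not pass the 2-fold limit. Psmb5 stood at 140 TPM in VSMCs against 36.1 TPM in mcPCs, with a log2 ratio of -0.13. Values for Psmb6 were 85.1 and 14.9 TPM (log2 ratio -0.74), and for Psmb7 168 and 39.0 TPM (log2 ratio -0.28). The immunoproteasome subunits thus made up 5.34% of the TPM of all 6 subunits in VSMCs and 30.1% in mcPCs. The ratio of the sums was 7.62-fold higher in mcPCs, 2.93 on the log2 scale. Setting opposite ends of the intervals of both cell types against each other gave 2.82 to 3.04. This range is not an exact interval, and the values on normalized and estimated counts, 2.67 and 3.14, lay outside it. Psmb9 per Psmb6 came to 0.0535 transcripts in VSMCs and 0.778 in mcPCs (log2 difference 3.86 on TPM and 3.98 on estimated counts). The pair of Psmb8 and Psmb5 had ratios of 0.0386 and 0.357 (log2 difference 3.21 on TPM and 4.81 on estimated counts), and that of Psmb10 and Psmb7 0.0728 and 0.365 (log2 difference 2.32). Constitutive subunits were the more abundant in each pair and cell type.

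**Figure D4:**
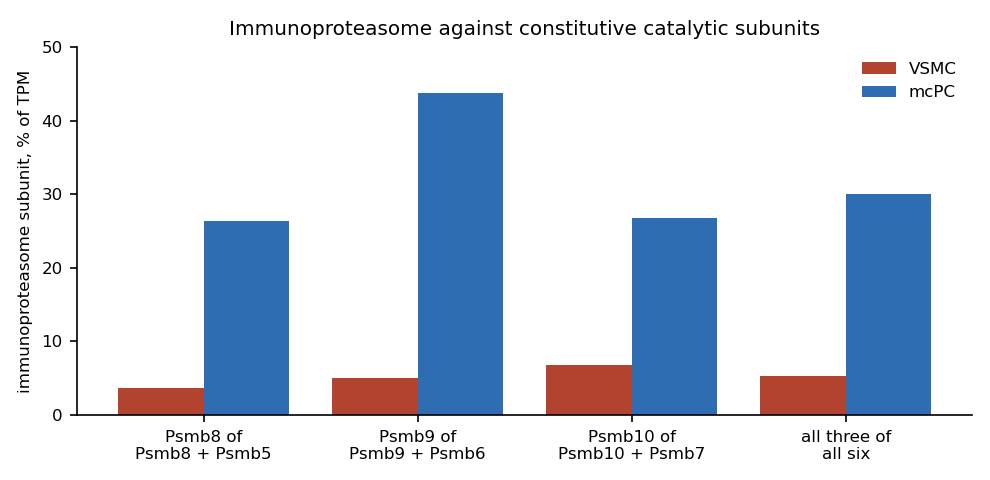
Bars give the TPM of the immunoproteasome subunit as a percentage of the pair of subunits that share a place in the proteasome, and for all 6 subunits together, in VSMCs and mcPCs. The bars of mcPCs are higher in every pair, and for all subunits together they read 5.34% in VSMCs and 30.1% in mcPCs.

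None of the proteasome activator genes passed the 2-fold limit. Psme1 and Psme2 encode the subunits of PA28, a cap induced by interferon gamma. Psme1 was at 165 TPM in VSMCs against 59.3 TPM in mcPCs (log2 ratio 0.34), and Psme2 at 54.3 and 23.1 TPM (log2 ratio 0.56). Both turned negative on 3 of the 6 scales. Psme3, the subunit of a nuclear activator, was at 61.7 and 12.6 TPM, with a log2 ratio of -0.47. Psme4, which encodes the activator PA200, was at 19.2 and 4.57 TPM, with a log2 ratio of -0.27 (-0.31 to -0.23). Psme1 and Psme2 transcripts per Psme3 transcript numbered 3.56 in VSMCs and 6.55 in mcPCs, a log2 difference of 0.88.

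The genes Tap2, Psmb8, Tap1 and Psmb9 neighbour each other in this order on chromosome 20 in RefSeq, which places 30 of the members on that chromosome. The core of the interferon response element, GAAA, any 2 bases and GAAA again, on either strand (TTTC, 2 bases and TTTC when read on the other), occurred in the promoters of 10 of the 37 members, or 27.0%, and in 3.92% of all promoters. The 10 were B2m, Tap1, Tap2, Tapbp, Psmb8, Psmb10, Psme2, RT1-S3, RT1-S2 and RT1-N3. Matches of neighbouring cores can overlap, as they do in Tapbp. The examples cover a gene each of the light chain, heavy chain, transport, loading, protease and activator roles, with the GAAA or TTTC letters in capitals.
B2m, chr3:129549150-129549219, plus strand: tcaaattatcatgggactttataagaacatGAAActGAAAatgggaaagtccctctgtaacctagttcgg
RT1-S3, chr20:2675386-2675455, plus strand: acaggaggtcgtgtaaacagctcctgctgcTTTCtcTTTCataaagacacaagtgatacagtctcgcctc
Tap1, chr20:4668625-4668694, minus strand: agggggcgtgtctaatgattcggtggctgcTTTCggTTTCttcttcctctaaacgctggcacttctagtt
Tapbp, chr20:4967878-4967947, minus strand: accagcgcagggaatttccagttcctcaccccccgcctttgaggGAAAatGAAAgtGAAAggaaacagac
Psmb10, chr19:50743298-50743367, minus strand: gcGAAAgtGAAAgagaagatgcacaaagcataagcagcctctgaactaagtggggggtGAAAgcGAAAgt
Psme2, chr15:33052765-33052834, minus strand: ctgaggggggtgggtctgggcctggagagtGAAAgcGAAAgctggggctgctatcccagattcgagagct
The letters TTCNNNGAA, a site form that STAT factors are known to bind and that reads the same on both strands, occurred in 5.41% of member promoters, those of Psmb8 and RT1-M3-1, and in 8.87% of all promoters. The genes with a match of the interferon response core differed in their levels. RT1-S3 had a log2 ratio of 5.38 and Psme2 of 0.56.

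Class II genes were near the lower end of the listed genes in VSMCs, and RT1-Da was among the more abundant genes of mcPCs. RT1-Da, which encodes the alpha chain of the RT1-D molecule, was at 0.382 TPM in VSMCs against 29.6 TPM in mcPCs. Over the 3 samples this corresponded to 30 reads and 6385 reads, and its rank was 11.1% and 91.6%. Its log2 ratio of 7.91 (7.39 to 8.48) was the highest of all members. RT1-DMa encodes a chain of the molecule that exchanges peptides on class II, and had 0.519 TPM in VSMCs against 4.83 TPM in mcPCs (log2 ratio 4.76). RT1-DOa, a chain of the modulator of that exchange, had 0.225 and 0.977 TPM (log2 ratio 3.84). RT1-Db2, a beta chain gene of the D series, was low in both cell types, with 0.282 TPM in VSMCs against 0.454 TPM in mcPCs. Its log2 ratio was 2.30 (1.61 to 3.04). Levels of the 4 genes summed to 1.41 TPM and 35.9 TPM, RT1-Da supplying most of the latter.

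Markers of leukocytes moved in the same direction as the class II genes. Leukocyte lists (microglia and macrophage, dendritic cell and B cell, T and NK cell, neutrophil) held 25 listed genes. At least 2-fold higher levels in mcPCs were found for 21 of them, against 21.6% of all listed genes. The 25 had a median log2 ratio of 5.12. Their TPM summed to 45.8 in VSMCs, where 20 of the 25 were under 0.8 TPM, and to 327 in mcPCs, where 4 were. Lyz2, the lysozyme gene of myeloid cells, was at 0.768 TPM in VSMCs against 131 TPM in mcPCs. Laptm5, a lysosomal protein gene of blood cells, was at 0.0533 and 38.2 TPM, and Zap70, a kinase gene of T cell receptor signalling, at 0.256 and 20.2 TPM. From the dendritic cell and B cell list 4 of 14 genes had values here, of which Cd83, Irf8 and Spi1 were higher in mcPCs by at least 2-fold.

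Of 19 listed endothelial markers, 15 reached at least 2-fold higher levels in mcPCs, against 21.6% of all listed genes. The 19 had a median log2 ratio of 4.04. Their summed TPM was 660 in VSMCs and 338 in mcPCs, of which Esam had 487 and 184 TPM and Slc2a1 115 and 23.9 TPM. All 4 listed astrocyte genes, all 4 listed neuron genes and 3 of 4 listed oligodendrocyte genes were higher in mcPCs by at least 2-fold as well. Their levels were low, and 2 of the astrocyte, 1 of the neuron and 2 of the oligodendrocyte genes were under 0.8 TPM in mcPCs too. Summed TPM in VSMCs and mcPCs was 0.582 and 15.7 for the astrocyte, 0.823 and 19.9 for the neuron, and 6.62 and 5.20 for the oligodendrocyte genes. In bulk samples, a larger number of cells of another type and more RNA per cell cannot be told apart. The erythrocyte list made up 55.0% of the TPM of mcPCs. The part of erythrocytes, leukocytes and these other cell types in the MHC values of mcPCs was not tested.

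**Figure D5:**
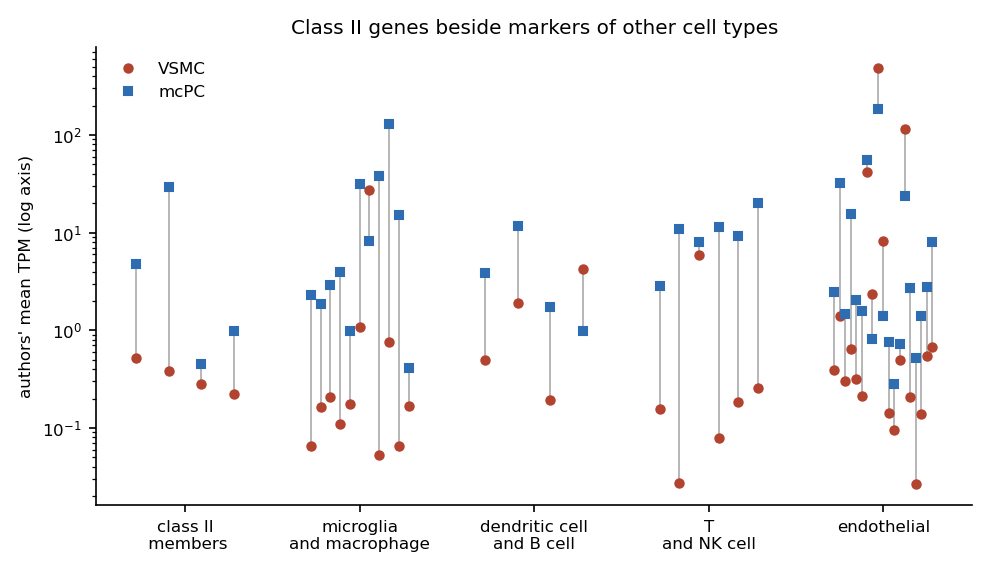
Mean TPM on a log axis is plotted for the 4 class II genes and for the listed markers of other cell types, with circles for VSMCs, squares for mcPCs and a line joining the values of a gene. RT1-Da is at 0.382 and 29.6 TPM, Laptm5 of the microglia and macrophage list at 0.0533 and 38.2 TPM, and Esam of the endothelial list at 487 and 184 TPM. Also of the endothelial list, Cldn5 is at 0.643 and 15.4 TPM.

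Nlrc5, the transactivator of class I genes, was scarce in both cell types, at 0.114 TPM in VSMCs against 0.586 TPM in mcPCs. This corresponded to 75 reads over the 3 VSMC samples and 715 reads over the 3 mcPC samples. Its log2 ratio was 4.05 (3.70 to 4.41). Among 14 genes of other factors that act on MHC promoters, 1 was at least 2-fold higher in mcPCs (Irf8) and 1 in VSMCs (Irf1). Of all listed genes, 21.6% and 13.8% passed the limit in these directions. The 14 had a median log2 ratio of -0.08. Irf1, an interferon-induced activator, was at 151 TPM in VSMCs against 9.45 TPM in mcPCs (log2 ratio -2.23), opposite in direction to the class I genes. Irf8, known from myeloid and B cells and also on the dendritic cell and B cell list, was at 1.92 and 11.7 TPM (log2 ratio 4.36). Rela, a subunit of NF-kappa-B, was at 101 TPM in VSMCs against 26.6 TPM in mcPCs (log2 ratio -0.10).

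Upstream of these factors, 3 of 7 genes of interferon receptors and their kinases were higher in mcPCs by at least 2-fold and none in VSMCs. Over all listed genes these shares were 21.6% and 13.8%. Ifngr1, the ligand-binding chain of the interferon gamma receptor, was at 67.8 and 53.7 TPM, with a log2 ratio of 1.46 (1.43 to 1.49). The kinase gene Jak1 was at 88.9 TPM in VSMCs against 35.8 TPM in mcPCs (log2 ratio 0.49).

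Endosomal proteases and the thiol reductase gene Ifi30 prepare peptides for class II molecules and also serve lysosomal breakdown in general. Of 5 listed genes 4 were higher in mcPCs by at least 2-fold, against 21.6% of all listed genes. Ctsb was at 330 TPM in VSMCs against 374 TPM in mcPCs (log2 ratio 2.02), and Ctsd at 174 and 100.0 TPM (log2 ratio 1.04). Partners in folding and trimming, which also serve proteins outside the MHC pathways, were mostly within the 2-fold limit. Their median log2 ratio was 0.28 and 1 of 11 was at least 2-fold higher in mcPCs, against 21.6% of all listed genes. That gene was Tmem173 (STING), which was on the list but does not serve in folding or trimming. Hspa5, the chaperone BiP, was at 432 TPM in VSMCs against 81.5 TPM in mcPCs (log2 ratio -0.59).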

How the data were processed

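Polyadenylated RNA of 6 samples, 3 VSMC and 3 mcPC, was sequenced from stranded libraries. The authors trimmed and filtered reads with Eoulsan, estimated TPM and counts with Salmon 0.8.0 on Ensembl cDNA of Rnor_6.0, and summed them per gene with tximport. The table deposited by the authors holds, per gene, their mean TPM of each cell type, their mean estimated counts (means per sequencing run, 4 runs per sample), their mean effective lengths, and their mean normalized counts, which are a signal made by dividing counts by DESeq2 factors. Its other columns hold the authors' fold changes, standard errors and p-values, which were not used. Values per sample were not analysed here, so the planned count test was not run.

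Log2 ratios were computed from mean normalized counts with a pseudocount of 1, over all 14607 genes. On TPM and on estimated counts a pseudocount of 0.1 was used. Counting intervals of single genes (95%, Clopper-Pearson) rest on reads over 3 samples, and 3 samples per cell type limit precision. Alternatives changed the scale, pseudocount, filter, fold limit and class I summary. Every member was accounted for. Values were given for all members outside class I and for the 6 class I genes with the highest mean TPM, and for at most the 3 most abundant genes of other lists. RT1-S2, RT1-A2, RT1-M3-1, RT1-M6-1, RT1-M6-2, RT1-N2, RT1-T24-4, Zap70, Irf8, Cd83, Spi1, Cldn5, Ifi30 and the genes of the closing observations were named after their values were seen. Mcam, Cspg4 and Rgs5 of the mural cell list were also named after their values were seen. Members and lists were chosen with earlier results of these data known. Computations ran in Python 3.11.15 with scipy 1.17.1, pandas 2.3.3, numpy 2.4.6 and matplotlib 3.10.9, and the steps were tested on simulated data.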

Additional observations from a re-analysis of the deposited data

How the results depend on the processing

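No paired analysis was possible because the values are means of each cell type. For the same reason no sample was left out in turn and DESeq2 was not run, and 1 mean per cell type limits every statement. No summary value changed sign under any alternative run. On TPM as it stands, where the median gene is at -1.72, 13 members were at least 2-fold higher in mcPCs and 10 in VSMCs. On that scale the median of members was 0.22, the class I sum 0.081 and the class II median 2.36. On TPM rescaled without the erythrocyte list the median of members was 1.35, the class I sum 1.22 and the class II median 3.46, and 2 members were at least 2-fold higher in VSMCs. On counts scaled to the same total the median of members was 1.499, the class I sum 1.49 and the class II median 3.79. With the class I genes summed to 1 gene, a choice made after seeing the data, 14 members were at least 2-fold higher in mcPCs and 0 in VSMCs, with a median of 1.61. With a 4-fold limit 0 members were higher in VSMCs. The class I log2 ratio was 1.80 on TPM centred on the median gene, 2.27 as the median of its genes and 1.77 without RT1-S3 and RT1-T24-4, also chosen after seeing the data. The log2 difference of the immunoproteasome ratio was 3.13 as the mean of pairs, 3.14 on estimated counts and 2.67 on normalized counts. Their causes were not tested, beyond what each scale is built from. A class I sum over genes with whole reads could not be made, since 0 genes had them.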

Other observations

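Class I-like and costimulatory genes, which stand beside the MHC pathways, were listed for 4 genes each. Of the class I-like genes 3 were higher in mcPCs by at least 2-fold and 1 in VSMCs, against 21.6% and 13.8% of all listed genes. Fcgrt, the neonatal Fc receptor heavy chain that also pairs with beta-2 microglobulin, was at 85.2 TPM in VSMCs against 74.9 TPM in mcPCs, with a log2 ratio of 1.65. Procr, the endothelial protein C receptor, was at 57.3 and 5.65 TPM, with a log2 ratio of -1.53. Of the costimulatory genes 3 of 4 were higher in mcPCs by at least 2-fold. Cd86, a ligand of CD28 on antigen-presenting cells, was at 5.19 TPM in VSMCs against 10.1 TPM in mcPCs, and Cd40, the receptor for the T cell ligand CD154, at 1.34 and 6.01 TPM. Tmem173, the STING gene, was on the folding and trimming list though it has neither role. It was the only gene of that list past the 2-fold limit, with 0.136 TPM in VSMCs against 3.42 TPM in mcPCs. Of the listed neutrophil genes 2 of 4 were higher in mcPCs by at least 2-fold, with a median log2 ratio of 1.40, as were 10 of 11 microglia and macrophage genes (median 6.17) and 6 of 6 T and NK cell genes (median 7.65). Over all listed genes the share was 21.6%.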
